A study of Apostichopus japonicus with 9 samples.

Results

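Intestinal gene expression of the sea cucumber Apostichopus japonicus was compared between animals kept in concentrated sea water (SD40) and animals kept in control sea water (SD30). The comparison was defined by the labels alone and uses 6 of the 9 RNA sequencing libraries of the study, SD40 replicates 1 to 3 against SD30 replicates 1 to 3. Each library was made from intestinal poly(A) RNA pooled in equal amounts from 3 animals. The animals were held at 15 °C and split at random into groups of 20, and the water of the SD40 group was brought from a salinity labelled 30 to one labelled 40 in steps of 2.5 every 6 h. The remaining 3 libraries, from diluted sea water (SD20, labelled 20), took part in the low-count filter, the scaling and the shared estimate of the spread. They also serve as a point of reference for single libraries and genes, and for AJAP01274 a contrast of SD40 with SD20 is given. Whether the pools within a group shared animals or a tank, and how long the animals stayed at the final salinity, is not stated in the labels, so a p-value measures only the spread between these pools, part of which may be technical.

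Sea cucumbers are marine echinoderms that do not hold the salt content of their body fluid far from that of the surrounding water. When the water becomes more concentrated, the cells of such animals lose water, and they are known to restore their volume by taking up ions and by raising the level of small organic solutes such as free amino acids. The intestine digests the organic matter of the sediment and takes up nutrients, and its wall holds epithelium, muscle, nerve cells and coelomocytes, the immune cells of the body cavity. The AJAP identifiers of the gene models are not paired with names in the sources used here, and none of the 27269 (0) was found in RefSeq's gene table for this sea cucumber. Roles, gene groups and cell type markers could therefore not be assigned, and genes are described by their abundance, their gene model length and their behaviour across libraries. In pooled bulk RNA of this kind, fewer cells of a type and less RNA per cell cannot be told apart.

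Estimated counts summed to 2834168 to 4034952 in the SD40 libraries and to 3340018 to 4060892 in the SD30 libraries. The libraries differed in composition. The 100 gene models with the highest mean share over the 6 libraries took 56.9%, 54.1% and 48.1% of counts in SD40 replicates 1 to 3, and 67.2%, 75.3% and 54.7% in SD30 replicates 1 to 3. The highest SD40 library thus lay above the lowest SD30 library, and the means of 53.0% ± 4.50 and 65.7% ± 10.4 (SD, n = 3 each) did not differ beyond the spread (exact two-sided permutation p = 0.2, adjusted p = 1 over the 5 library-level measures compared, where 0.1 is the smallest p that 3 against 3 can give). At an equal depth of 2834123 reads, 21361, 18610 and 18970 gene models would be expected to have a read in SD40 replicates 1 to 3, against 16774, 16887 and 19735 in the SD30 libraries. SD40 replicate 1 lay above all 5 other libraries, while SD40 replicates 2 and 3 lay within the SD30 range.

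Most fitted differences between the salinities were under 2-fold, and they came with errors of the same order. The fitted log2 fold change, SD40 against SD30, had a median of 0.11 over the 14191 genes tested, and 25% to 75% of the genes lay between -0.40 and 0.70. The median absolute log2 fold change was 0.56 and its standard error (SE) had a median of 0.71. A fitted difference of at least 2-fold was found for 27.6% of genes, 2449 higher and 1462 lower in SD40, and one of at least 8-fold for 268 higher and 179 lower genes. No gene passed edgeR's quasi-likelihood test after Benjamini-Hochberg adjustment (0 of 14191, lowest adjusted p = 0.235). Before adjustment, 894 genes (6.3% of those tested) had p under 0.05, 492 of them higher (3.47%) and 402 lower (2.83%) in SD40. DESeq2 called 46 of the 11593 genes it gave an adjusted p (0.397%), 14 higher (0.121%) and 32 lower (0.276%). The DESeq2 count rested on the libraries used, in fits added after the data were seen. It was 35, 109 and 147 without SD30 replicates 1, 2 and 3, and 83, 66 and 41 without SD40 replicates 1, 2 and 3. Of the 46 genes called with all libraries, 41 were among the genes tested with edgeR. Of these, 33 had libraries that did not overlap between the groups.

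The balance of higher and lower genes depended on the scaling. Scaling to library totals in place of TMM (trimmed mean of M-values, a scaling that discounts the most abundant and most divergent genes) shifted the median log2 fold change of all genes by 0.48, to 0.60, and the genes at an unadjusted p under 0.05 were then 1096 higher and 145 lower. The directions given here are relative to the TMM scaling unless another is named.

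Fitted differences were larger among scarce than among abundant transcripts. The tested genes were divided into quintiles by mean CPM (the count divided by the TMM-scaled library size, times 1000000) over the 6 libraries. In the lowest quintile, with mean levels from 0.132 to 3.36 CPM, the median absolute log2 fold change was 0.80 with a median SE of 1.07. It was 0.61, 0.53 and 0.46 in the next quintiles and 0.45 in the highest, which began at 30.3 CPM and had a median SE of 0.53. The share of genes at least 2-fold apart was 41.8% in the lowest quintile and 21.1% in the highest. The share with an unadjusted p under 0.05 went the other way, from 5.39% (153 genes) to 8.28% (235 genes), against 6.3% over all tested genes. Larger fitted differences among scarce transcripts were thus matched by larger errors.

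The direction of the differences also shifted with abundance. The median log2 fold change was 0.53, 0.20, 0.10, 0.01 and -0.09 from the lowest to the highest quintile. In the lowest quintile 951 genes were fitted at least 2-fold higher and 236 at least 2-fold lower in SD40, whereas in the highest 246 were higher and 352 lower. At an unadjusted p under 0.05 the lowest quintile held 116 higher and 37 lower genes, and the highest 85 higher and 150 lower. A gene could pass the filter on low counts through its level in 3 libraries alone, so a scarce gene that was high in 1 group could enter where it would otherwise have been left out. The median of the lowest quintile exceeded that of the highest by 0.61 log2 units. This difference was 0.57 with a filter on a mean count of 10 instead, 0.39 with library totals and 0.31 when the filter was run on the SD40 and SD30 libraries alone, a choice made after the data were seen. It was 0.01 without any filter, where 27118 genes entered and the lowest quintile held other, scarcer genes.

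This gradient rested on SD40 replicate 1. Each gene's log2(CPM + 1) was taken as a deviation from its mean over the 6 libraries. The median deviation in the lowest quintile was 0.68 in SD40 replicate 1, -0.19 in replicate 2 and -0.16 in replicate 3, and -0.42, -0.33 and 0.19 in SD30 replicates 1 to 3. In the highest quintile SD40 replicate 1 lay at -0.27 and SD30 replicate 3 at -0.15, and the 4 other libraries at 0.05 to 0.15. Relative to this shared mean, SD40 replicate 1 and SD30 replicate 3 were therefore tilted towards scarce transcripts and the remaining libraries towards abundant ones, across the group boundary. A high library lowers the deviations of the rest. TMM multiplies each library total by a factor. It was 1.116, 0.9956 and 1.055 in SD40 replicates 1 to 3 and 0.571, 0.4917 and 1.184 in SD30 replicates 1 to 3. Whether the tilt follows these scaled library sizes was not tested. Refitted without SD40 replicate 1, the median log2 fold change of the same quintiles was -0.12, -0.06, -0.05, -0.02 and -0.01, and the gradient had turned. Without SD30 replicate 3 it was steeper, with 0.86 in the lowest quintile and -0.22 in the highest.

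**Figure D1:**
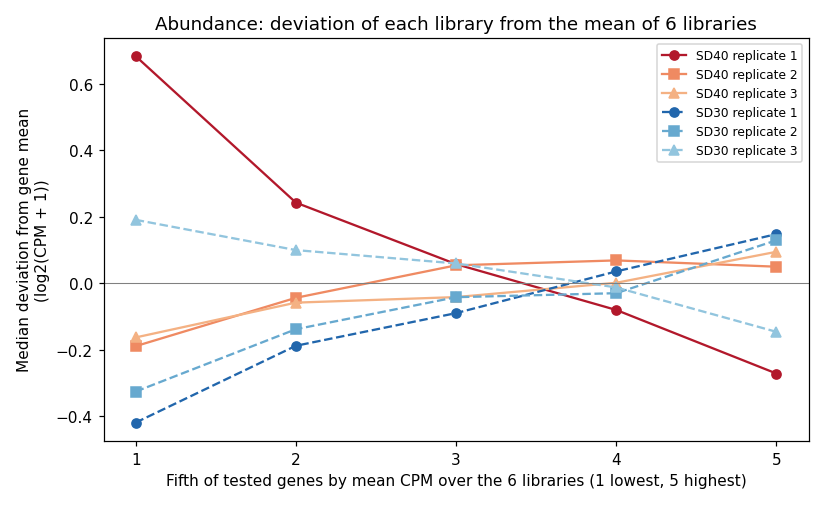
Median deviation of each library from the gene's mean over the 6 libraries, in log2(CPM + 1), for quintiles of tested genes by mean CPM. Solid lines are SD40 and dashed lines SD30 libraries, and SD40 replicate 1 runs from 0.68 in the lowest quintile to -0.27 in the highest while SD40 replicates 2 and 3 run from -0.19 and -0.16 to 0.05 and 0.09.

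Long gene models were shifted upwards at high salinity in the fit of all libraries. Lengths are mainly coding lengths, since 93.5% of them are multiples of 3. The quintile of the shortest models, from 153 to 612 bases, had a median log2 fold change of 0.07, the next ones 0.08, 0.05 and 0.13, and the quintile of the longest models, which began at 1800 bases, 0.26. Of the longest models 598 were fitted at least 2-fold higher and 212 at least 2-fold lower in SD40, and of the shortest 449 and 284. The size of the differences hardly varied with length, with a median absolute log2 fold change between 0.53 and 0.58 in the 5 quintiles, nor did the share with an unadjusted p under 0.05, which lay between 5.85% and 6.91%. Within quintiles of abundance, the longest models exceeded the shortest by 0.34, 0.33, 0.31, 0.15 and 0.05 on the log2 fold change scale from scarce to abundant genes, so the length pattern was not uniform across abundance.

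The length pattern, too, turned without SD40 replicate 1. In the longest quintile the median deviation from the gene mean was 0.48 in this library but -0.16 and -0.13 in SD40 replicates 2 and 3, and -0.18, -0.13 and 0.03 in the SD30 libraries. In the shortest quintile the order was reversed, with -0.15 in SD40 replicate 1 and 0.13 in both replicates 2 and 3. The contrast of longest minus shortest quintile per library was therefore 0.63, -0.28 and -0.26 in SD40 and -0.14, -0.13 and 0.06 in SD30. SD40 replicate 1 had the highest value of the 6 libraries and SD40 replicates 2 and 3 the lowest, so the SD30 libraries lay between libraries of the SD40 group. The group means of 0.03 ± 0.52 and -0.07 ± 0.11 (SD, n = 3 each) did not differ beyond the spread (exact two-sided permutation p = 1). Without SD40 replicate 1 the difference between the groups was -0.18 (exact permutation p = 0.2), and the median log2 fold change of the longest quintile was -0.13 against 0.09 for the shortest. Within every quintile of abundance the sign turned in the same way without this library, to between -0.35 and -0.17.

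**Figure D2:**
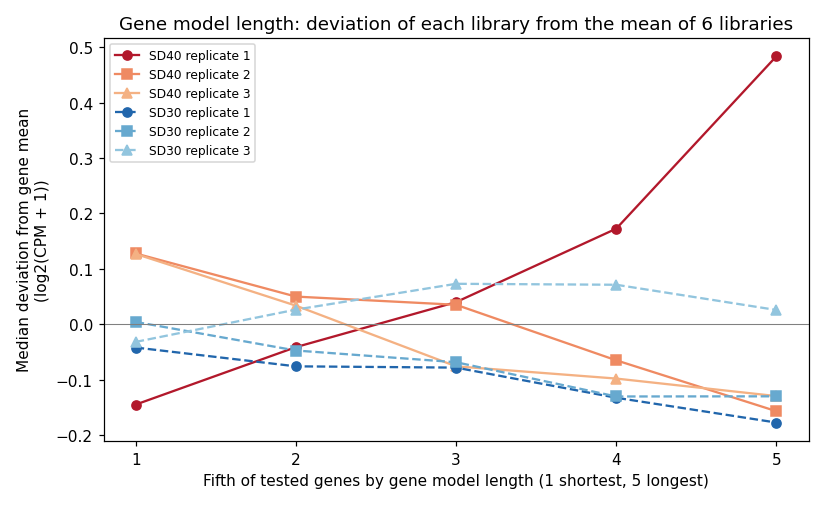
Median deviation of each library from the gene's mean over the 6 libraries, in log2(CPM + 1), for quintiles of tested genes by gene model length. SD40 replicate 1 runs from -0.15 to 0.48, SD40 replicates 2 and 3 run from 0.13 to -0.16 and -0.13, and the SD30 libraries stay between -0.18 and 0.07.

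The same contrast was visible in the share of reads. With the 100 most abundant gene models left out, models over 3000 bases took 9.10% of the remaining counts in SD40 replicate 1, against 5.91% and 5.59% in SD40 replicates 2 and 3 and 5.58%, 6.12% and 6.57% in the SD30 libraries. Over all gene models these long ones took 25.6%, 24.1% and 15.8% in SD40 and 17.2%, 30.0% and 24.99% in SD30. Models under 500 bases took 8.22%, 10.4% and 14.6% of counts in SD40 and 8.16%, 6.38% and 10.6% in SD30 (exact two-sided permutation p = 0.4, adjusted p = 1 over the 5 measures).

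Genes whose libraries separated the groups completely were then counted. This count is a description and no test, and none of these genes passed edgeR's adjusted threshold. Complete separation is the most extreme order of 3 against 3 libraries, at an exact two-sided permutation p of 0.1. Genes that do not differ would reach it at about that share, so the count is no number of genes responding to salinity. All 3 SD40 libraries lay above all 3 SD30 libraries for 793 genes (5.59% of those tested) and below them for 549 genes (3.87%), together 1342 genes (9.46%). Scaled to library totals, 1623 separated genes were higher and 109 lower, and in the deposited FPKM 1607 and 114. The separation was usually narrow. The gap between the nearest libraries of the 2 groups, on the CPM + 1 scale, had a median of 0.23 log2 units in both directions, and it reached 2-fold for 48 higher and 37 lower genes and 4-fold for 5 higher and 9 lower genes. Of the separated genes, 332 higher and 227 lower ones had an unadjusted p under 0.05, which their choice by separation favours. When the group means also had to differ at least 2-fold on that scale, 781 genes (5.5%) were left, 483 higher (3.4%) and 298 lower (2.1%).

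The separated genes were spread over all abundances and lengths. They made up 8.81% of the lowest and 9.23% of the highest abundance quintile, and 10.4% of the shortest and 8.56% of the longest models, against 9.46% of all tested genes. Direction, however, varied with abundance. In the lowest quintile 196 were higher and 54 lower in SD40, and in the highest 118 were higher and 144 lower. Here too a scarce gene could pass the filter through its high group, and directions are relative to the TMM scaling. These counts by abundance were not repeated without SD40 replicate 1, where the gradient over all tested genes turned. Higher genes had a median mean level of 6.95 CPM and a median length of 1035 bases, and lower genes 13.7 CPM and 1008 bases, while all tested genes had medians of 8.74 CPM and 1057 bases. Estimated counts were whole numbers in all 6 libraries for 46.5% of higher and 37.2% of lower genes, against 43.9% of tested genes. A fractional count can come from splitting reads among near-identical models, so genes with such counts are uncertain where close copies exist.

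SD40 replicate 1 was the library that most often ended a separation within its own group. Among the 14191 genes, SD40 replicates 2 and 3 both lay above all SD30 libraries for 1685 genes and both below for 1369. Of the 1685 higher genes, SD40 replicate 1 lay on the same side for 793, within the SD30 range for 610, and below all SD30 libraries for 282. Of the 1369 lower genes it lay on the same side for 549, within the SD30 range for 400 and above all SD30 libraries for 420. Leaving out SD40 replicate 2 gave 1497 higher and 1121 lower genes, and leaving out SD40 replicate 3 gave 1424 and 1074. Among the controls, the number grew most without SD30 replicate 3, to 1892 and 1362. Fewer libraries separate more easily, so these counts are to be read against each other and not against the 1342.

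The 5 genes with a gap of at least 4-fold that were higher in SD40 had gene models of 264 to 987 bases. They and the 9 lower ones were picked out after their values had been seen. AJAP22551, the shortest of them, stood at 24.8, 77.1 and 124 CPM in SD40 replicates 1 to 3 and at 0, 0 and 0.255 CPM in the SD30 libraries. Its SD20 libraries stood at 22.7, 0 and 0.192 CPM, so 1 pool at low salinity also held this transcript. Its counts were whole numbers in the 6 libraries, and the single SD30 count means that no fold can be given with any precision. AJAP08078, AJAP25879 and AJAP03687 had no read in any SD30 library and stood at 5.40, 9.86 and 8.11 CPM, at 6.08, 3.19 and 4.73 CPM and at 4.95, 4.64 and 3.04 CPM in SD40. With no count in SD30, a level of up to 0.383 CPM is allowed over the group (3 counts), which makes the pooled SD40 levels at least 19.5-fold, 12.5-fold and 11.2-fold higher by counting error alone. All 3 are scarce transcripts with values that are not whole. In SD20 replicates 1 to 3 they stood at 0.219, 4.99 and 0.384 CPM, at 0, 5.83 and 5.37 CPM and at 0, 0.416 and 0.959 CPM. SD20 replicates 2 and 3 thus held AJAP25879 within its SD40 range, and SD20 replicate 2 held AJAP08078 just below its lowest SD40 level.

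The fifth of these genes, AJAP01274, had the smallest p of the comparison. It stood at 76.3, 75.4 and 49.3 CPM in SD40 and at 8.34, 9.05 and 9.43 CPM in SD30. The groups were far apart, the SD30 libraries hardly differed from each other on this TMM scale, and SD40 replicate 1 lay beside replicate 2. Its log2 fold change of 2.90 (SE 0.39) did not pass in edgeR (adjusted p = 0.235) and passed in DESeq2 (adjusted p = 1.70e-07), and it stayed between 2.72 and 3.38 over the 14 alternatives run for it. In the deposited FPKM, which lacks the TMM scaling, it stood at 85.6, 75.7 and 51.8 in SD40 and at 4.82, 4.53 and 11.2 in SD30. On that scale SD30 replicate 3 lay apart from the other control libraries, and the groups still did not overlap. AJAP20386, with the next smallest p among higher genes, had a longer model of 5019 bases and stood at 15.99, 20.9 and 11.1 CPM against 2.09, 4.02 and 3.06 CPM. The groups did not overlap. The fitted log2 difference was 2.38 with an SE of 0.51, and the adjusted p was 0.770 in edgeR and 0.0305 in DESeq2.

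The 9 genes with a gap of at least 4-fold that were lower in SD40 had models of 504 to 2778 bases. Each had an unadjusted p under 0.05 in edgeR, as did the 5 higher ones. Their choice by the gap between the same libraries favours a small p, so these p-values add no support. AJAP25896, with the smallest p among lower genes, had no read in SD40 and stood at 34.9, 12.6 and 28.05 CPM in SD30. AJAP22456 and AJAP28145 likewise had no read in SD40, with 14, 45 and 49 counts and with 17.1, 13.6 and 19.8 estimated counts in the SD30 libraries. The floor over the SD40 group was 0.277 CPM (3 counts), so by counting error alone the pooled SD30 levels of the 3 genes were at least 93.5-fold, 49.9-fold and 23.3-fold higher. These 3 were the only gene models with no read in SD40 and at least 10 estimated counts in every SD30 library (0.0116% of the 25914 listed in the 6 libraries), and AJAP08078 and AJAP25879 were the only ones for the opposite pattern with at least 10 in every SD40 library (0.00772%). AJAP22456 had 10, 45 and 230 counts in the SD20 libraries, whereas AJAP28145 had 4.90, 0 and 0. AJAP29425, with the next smallest p, had 3, 2 and 0 counts in SD40 and 11.5, 8.05 and 19.6 CPM in SD30. Its fitted log2 difference was -4.79 with an SE of 0.80, and the adjusted p was 0.763 in edgeR and 0.000127 in DESeq2.

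**Figure D3:**
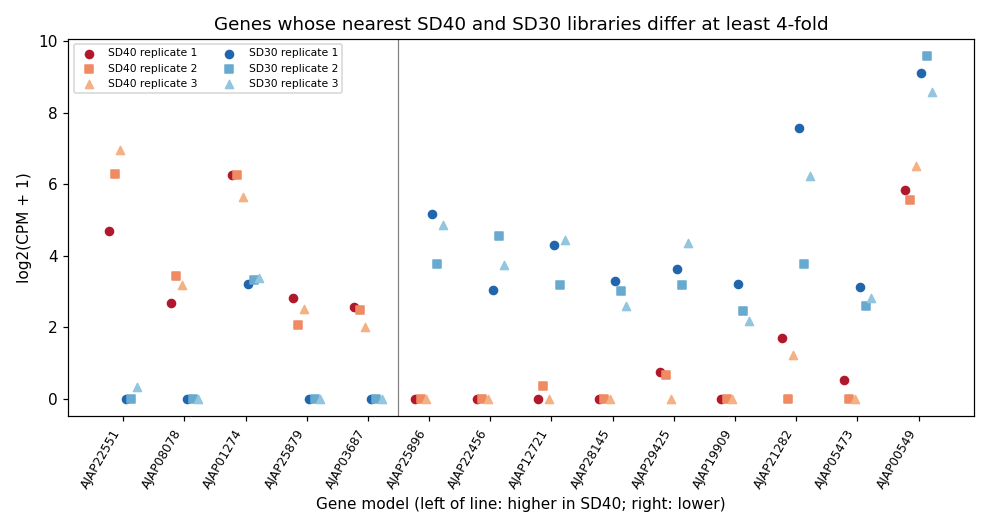
Level of the 14 genes whose nearest SD40 and SD30 libraries were at least 4-fold apart on the CPM + 1 scale, as log2(CPM + 1) in each of the 6 libraries. Circles, squares and triangles are replicates 1, 2 and 3, red tones SD40 and blue tones SD30, with the 5 genes higher in SD40 left of the line and the 9 lower genes right of it. SD40 replicate 1 lies with its group for all 14, which the choice of the genes fixes.

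Among separated genes with group means at least 2-fold apart, the most abundant lower one was AJAP26202, a gene model of 11460 bases. It stood at 42072, 50567 and 54838 CPM in SD40 and at 114279, 122969 and 69126 CPM in SD30. SD30 replicate 3 was nearest to the SD40 libraries. The fitted log2 difference was -1.05 with an SE of 0.34, at an edgeR adjusted p of 0.770, and with library totals it was -0.42, where the median gene lay at 0.60. AJAP29363, of 759 bases, followed with 1066, 1451 and 1171 CPM in SD40 and 2214, 3394 and 2007 CPM in SD30. The difference was -1.05 on the log2 scale with an SE of 0.42, at the same edgeR adjusted p of 0.770. As a share of library totals its groups overlapped, at 0.117%, 0.144% and 0.122% against 0.126%, 0.166% and 0.236%, and its log2 fold change was then -0.46. Counts of both genes were whole numbers.

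The most abundant higher genes of this kind were AJAP28846 and AJAP00528, with models of 1968 and 1791 bases. AJAP28846 stood at 941, 2759 and 605 CPM in SD40 and at 487, 59.4 and 268 CPM in SD30. It varied more within groups than AJAP00528, and its groups were separated by a narrow gap between SD40 replicate 3 and SD30 replicate 1. Its fitted log2 difference of 2.40, with an SE of 1.12 and an edgeR adjusted p of 0.770, became 1.42 without SD40 replicate 2 and 3.10 without SD30 replicate 1. AJAP00528 stood at 1243, 1342 and 929 CPM against 410, 477 and 344 CPM, with the libraries of each group close together. The fitted log2 difference was 1.51 with an SE of 0.47, at an edgeR adjusted p of 0.770, and 1.32 to 1.65 on omission of any 1 of the 9 libraries. Neither gene passed in DESeq2 (adjusted p = 0.522 and 0.250).

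Departures of single libraries from their group were counted next, and among the 14191 tested genes SD40 replicate 1 had the most of the 6 libraries. It lay at least 4-fold above both other SD40 libraries for 885 genes (6.24% of those tested) and at least 4-fold below both for 222 (1.56%), on the CPM + 1 scale. The corresponding totals of both directions were 1107 genes (7.8%) for SD40 replicate 1, 443 (3.12%) for replicate 2 and 705 (4.97%) for replicate 3, and 708 (4.99%), 607 (4.28%) and 589 (4.15%) for SD30 replicates 1 to 3. The excess was upwards. The other libraries lay above both others of their group for 204 (1.44%) and 303 genes (2.14%) in SD40 replicates 2 and 3 and for 416 (2.93%), 269 (1.9%) and 276 genes (1.94%) in SD30 replicates 1 to 3. They lay below both for 239 (1.68%) and 402 genes (2.83%) in SD40 replicates 2 and 3 and for 292 (2.06%), 338 (2.38%) and 313 genes (2.21%) in SD30 replicates 1 to 3, so SD40 replicate 1 had the fewest low genes of the 6 libraries. No replicate of such a departure exists, so it has no test. The rank of SD40 replicate 1 depended on the scaling and on which genes were kept. With library totals SD30 replicate 3 had 1212 departures, close to the 1221 of SD40 replicate 1. With the low-count filter run on the SD40 and SD30 libraries alone, 11021 genes were left, and SD40 replicate 1 had 494 departures, fewer than the 583 of SD30 replicate 1 and the 578 of SD40 replicate 3. Without a filter it had 1358, and the other libraries 583 to 875. At a minimum of 8-fold, SD40 replicate 1 lay above both others for 232 genes, SD30 replicate 1 for 185 and the 4 other libraries for 62 to 118. With a pseudocount of 5 CPM in place of 1, also chosen after the data were seen, the upward count at 4-fold was 217 for SD40 replicate 1, 258 for SD30 replicate 1 and 74 to 175 for the others.

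Among the 14191 tested genes, those high in SD40 replicate 1 were long and scarce. The 885 genes had a median length of 1407 bases, and 10.8% of them were longer than 3000 bases, against 5.96% of tested genes, while 4.52% were shorter than 500 bases against 11.3%. From the shortest to the longest quintile of models their number was 80, 134, 151, 221 and 299. From the lowest to the highest quintile of abundance it was 354, 228, 163, 93 and 47. The 222 genes that were low in this library had a median length of 810.5 bases, with 65 in the shortest and 20 in the longest quintile. In the 5 other libraries the high genes in the longest quintile numbered 23 to 55. With the filter run on the SD40 and SD30 libraries alone, 295 genes were high in SD40 replicate 1, with a median length of 1587 bases. Of these, 27 were in the shortest and 130 in the longest quintile. Their median levels were 3.48 and 3.38 CPM in SD40 replicates 2 and 3 and 6.04 to 10.45 CPM in SD30. Their quintiles of abundance were not counted, so scarcity was shown only with the main filter, which SD20 levels could pass.

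**Figure D4:**
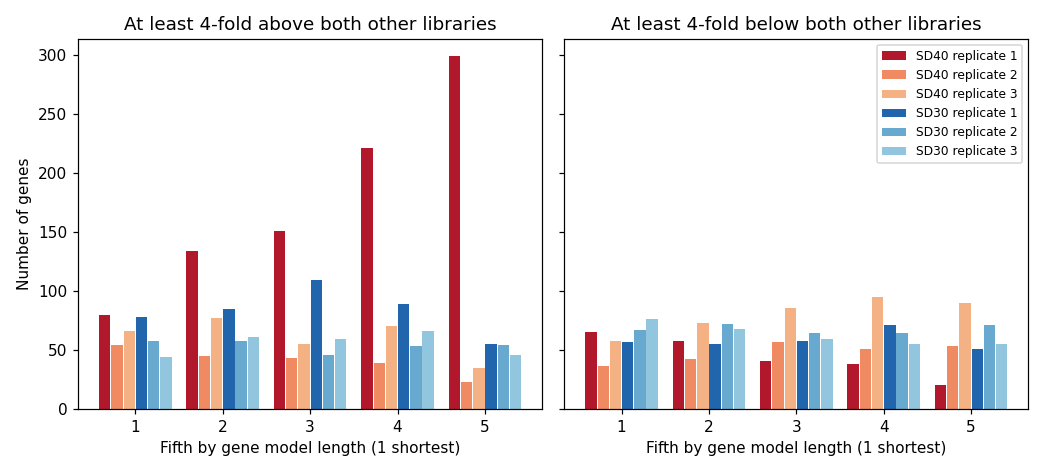
Number of tested genes in which a library lay at least 4-fold above (left) or below (right) both other libraries of its group, on the CPM + 1 scale, by quintile of gene model length. Bars are the 6 libraries, and the high genes of SD40 replicate 1 number 80 in the shortest and 299 in the longest quintile.

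The 885 genes high in SD40 replicate 1 were then followed in the other groups. A gene scarce in SD40 and SD30 could enter the tested genes through the SD20 libraries, so its SD20 level was in part fixed by the filter. Their median level was 14.6 CPM in SD40 replicate 1 and 0.870 and 1.01 CPM in SD40 replicates 2 and 3, as the choice requires. It was 1.56, 1.51 and 3.57 CPM in SD30 replicates 1 to 3, and 6.78, 3.33 and 9.59 CPM in SD20 replicates 1 to 3. Filters in which SD20 had no part gave the same order. Without a filter, 1125 genes were high in SD40 replicate 1, at a median of 11.5 CPM there, 1.01, 0.975 and 2.07 CPM in SD30 replicates 1 to 3 and 4.37, 1.90 and 6.28 CPM in SD20 replicates 1 to 3. For the 295 genes left by the filter on SD40 and SD30 alone, the medians were 31.8 CPM in SD40 replicate 1, 6.78, 6.04 and 10.4 CPM in SD30 and 13.99, 8.12 and 19.9 CPM in SD20. In all 3 sets of genes the medians of SD20 replicates 1 and 3 lay between those of SD40 replicate 1 and of every control library, and SD20 replicate 2 lay below SD30 replicate 3. The 222 genes low in SD40 replicate 1 had a median of 0.901 CPM there, 16.7 and 15.9 CPM in SD40 replicates 2 and 3, 7.04 to 8.87 CPM in SD30 and 5.56 to 7.59 CPM in SD20. In this set both other groups lay between the SD40 libraries.

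Single genes showed how far SD40 replicate 1 could differ. AJAP26848 and AJAP03489 were the tested genes furthest above both other SD40 libraries. AJAP26848 stood at 597 CPM in SD40 replicate 1 and had no read in replicates 2 and 3, while the SD30 libraries held 3061, 908 and 322 CPM and the SD20 libraries 200.2, 174 and 102 CPM. This transcript was thus present in every library but SD40 replicates 2 and 3. Its listed model length of 209614 bases is one of 7 over 20000 bases among the tested genes, so what it counts is uncertain. AJAP03489, of 675 bases, stood at 68.5 CPM in SD40 replicate 1, had no read in the other SD40 libraries, and reached 3.82 CPM at most in SD30.

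AJAP04243 and AJAP21541 were furthest below. AJAP04243, of 354 bases, had no read in SD40 replicate 1 but stood at 177 and 293 CPM in replicates 2 and 3 and at 122, 64.9 and 142 CPM in SD30. AJAP21541, of 1092 bases, stood at 3.60, 420.5 and 475 CPM in SD40 and at 74.6, 235 and 95.9 CPM in SD30. For both genes every control library lay between SD40 replicate 1 and the other SD40 libraries, and their group comparisons gave log2 fold changes of 0.52 (SE 1.43) and 1.15 (SE 1.14).

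Over all tested genes SD40 replicate 1 correlated more closely with the SD20 libraries than with its own group, and it was not alone in this. Pearson's r of log2(CPM + 1) across the 14191 genes was 0.737 and 0.692 between SD40 replicate 1 and SD40 replicates 2 and 3, and 0.786 between the latter. With the SD30 libraries SD40 replicate 1 had r = 0.702, 0.732 and 0.775, and with the SD20 libraries 0.785, 0.757 and 0.784. SD40 replicate 3 had a mean r of 0.763 to SD20, 0.756 to SD30 and 0.739 to its own group. SD30 replicate 3 had one of 0.794 to SD20, 0.785 to SD40 and 0.775 to its own group. For SD40 replicate 1 the corresponding means were 0.775 to SD20, 0.736 to SD30 and 0.714 to its own group. SD40 replicate 2 was closest to the control, with a mean r of 0.795 to the SD30 libraries against 0.761 to its own group and 0.720 to SD20. With the filter run on the SD40 and SD30 libraries alone these means were 0.757, 0.750 and 0.712, nearly a tie between control and own group. Without a filter they were 0.868, 0.850 and 0.832. These are correlations across genes of libraries that share the same tested genes and scaling, and genes are not independent replicates. At least 4-fold differences on the CPM + 1 scale separated SD40 replicate 1 from replicates 2 and 3 for 14.9% and 17.6% of genes, and replicates 2 and 3 from each other for 11.4%.

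**Figure D5:**
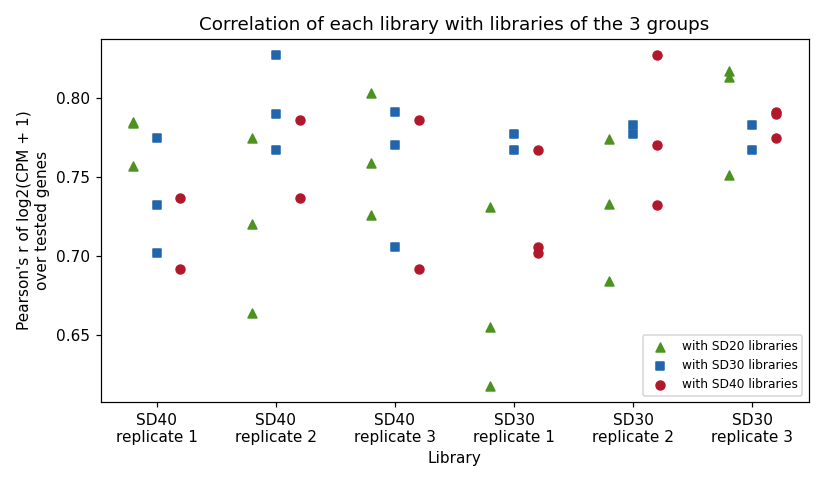
Pearson's r of log2(CPM + 1) over the tested genes between each of the 6 libraries and the libraries of each group (triangles SD20, squares SD30, circles SD40). For SD40 replicate 1 the 2 values with its own group, 0.692 and 0.737, lie below the 3 values with SD20, 0.757 to 0.785. The mean value with SD20 exceeds that with the own group in SD40 replicate 3 and SD30 replicate 3 as well.

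Set against the control mean one by one, the SD40 libraries gave different pictures of the response. Relative to the mean log2(CPM + 1) of the 3 SD30 libraries, SD40 replicate 1 was at least 2-fold higher for 3392 genes and lower for 1632, replicate 2 for 1896 and 1676, and replicate 3 for 2244 and 2422. The longest quintile of models had a median difference of 0.58 in replicate 1 but -0.08 in replicate 2 and -0.03 in replicate 3. All 3 were set against the same controls. Over all tested genes the spread within SD40 was close to that within SD30, with a median SD of log2(CPM + 1) per gene of 0.69 and 0.67 (n = 3 each). It was wider in SD40 in the lowest abundance quintile (0.840 against 0.684) and in the longest quintile (0.765 against 0.658). In the highest abundance quintile it was 0.634 against 0.620, and in the shortest quintile 0.621 against 0.641. Leaving out SD40 replicate 1 did not bring any gene past the threshold in edgeR (0 of 15148, lowest adjusted p = 0.485), with 1077 genes at an unadjusted p under 0.05. Without this library DESeq2 called 83 of the 10526 genes it gave an adjusted p, 37 higher and 46 lower. With all libraries it called 46 of 11593.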

How the data were processed

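The authors deposited one table per library with the estimated count of every gene model (per the file headers; unscaled and in part fractional), its FPKM and its length. The submitters' processing notes name CASAVA 1.5. The aligner, the counting software, the build and the gene annotation were not given in the sources used. The deposited FPKM values are fragments per kilobase of model and per unit of library depth. A gene model missing from a library's file was set to 0. Estimated counts were rounded, and edgeR 4.0.16 (R 4.3.3) gave the test (filterByExpr, TMM, robust quasi-likelihood fit of all 9 libraries by group, contrast SD40 minus SD30, Benjamini-Hochberg adjustment, threshold 0.05), with DESeq2 1.42.0 and limma 3.58.1 as alternatives. An SE is the size of the log2 fold change over the root of F. Deviations, gaps and departures use TMM-scaled CPM plus 1. Depth was 2834168 to 4060892 estimated counts per library, and floors of 3 counts cover counting error only. Named genes were 2 per direction by smallest p, by abundance among separated genes and by departure of SD40 replicate 1, and other names were chosen after their values were seen. Comparisons, lists and tests were chosen with earlier results of these data known. The scripts were tested on simulated data.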

Additional observations from a re-analysis of the deposited data

Results flagged for a closer look

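AJAP01274 drew attention because its response to high salinity differed from that to low salinity when SD40 and SD20 were contrasted in the edgeR quasi-likelihood fit, with an adjusted p of 0.0340. The gene was higher in 3 of 3 SD40 libraries, at 76.3, 75.4 and 49.3 CPM, than in any SD20 library, at 3.06, 4.37 and 4.22 CPM, a difference of 4.097 on the log2 scale with an SE of 0.41. Against SD30 it did not pass in edgeR (adjusted p = 0.235). Only the genes named by rule were screened for the contrast with SD20, and this gene was named for its small p with the same SD40 libraries. How many of all tested genes passed that contrast was not counted. Groups of 3 libraries are too small for a check of single outlying libraries.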

How the results depend on the processing

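In edgeR and limma no gene passed under any alternative but the fit without a filter on low counts, which called 1 gene, AJAP25896. DESeq2 called 46. In fits added after the data were seen it called 35, 109 and 147 without SD30 replicates 1, 2 and 3. Without SD40 replicates 1, 2 and 3 it called 83, 66 and 41. Genes given an adjusted p numbered 15269, 9531, 11584, 10526, 12668 and 15275 in the same order, against 11593 with all libraries. At an unadjusted p under 0.05 the 894 genes became 535 with SD40 and SD30 only, 1401 without a filter, 1393 with DESeq2, 1411 and 1606 with limma on log2(FPKM + 1) and log2(FPKM + 0.1), and 582 with limma voom. The replicate block gave 0 calls and 698 such genes. Deviations of same-numbered libraries correlated weakly (r = -0.002, 0.130 and 0.064). The 0.130 of the libraries numbered 2 was the highest r of any pair. SD40 replicate 1 correlated best with SD30 replicate 3 (r = 0.128), and differently numbered pairs lay between -0.218 and 0.128. These values do not settle whether the numbers pair the libraries.

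Separated genes numbered 2020 without a filter (1305 higher), and without 1 library, with the filter run anew, 2390 to 3473 (1267 to 1878 higher, 1123 to 1595 lower). Higher and lower were 1623 and 109 with library totals and 1607 and 114 with FPKM. The lowest minus highest abundance quintile gave a difference in median log2 fold change of 0.61, and -0.15 to 1.38 without 1 library, where -0.15 is without SD40 replicate 1 and 1.38 without SD30 replicate 3. The longest minus shortest length quintile gave 0.19, and -0.21 (without SD40 replicate 1) to 0.37. The group difference of the length contrast per library, 0.10, ranged from -0.18 to 0.28. Genes departing in SD40 replicate 1 were 282 at 8-fold, 3493 at 2-fold, 272 with a pseudocount of 5 CPM, 494 with the low-count filter run on the SD40 and SD30 libraries alone, a choice made after the data were seen, and 997 to 1358 under the other scalings and filters. The cause of these changes was not tested. Of the 8 named genes refitted, each kept its direction in all 14 alternatives. In all 8 the SD40 and SD30 libraries did not overlap, so leaving out 1 library could hardly turn the direction. The low depth limits the lowest abundance quintile most, where the median SE was 1.07.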

Other observations

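Some gene models were listed in a single library of the 6. SD40 replicate 1 held 1189 of these, against 398 and 423 in SD40 replicates 2 and 3 and 251, 326 and 465 in SD30 replicates 1 to 3. Most were near the limit of detection, with a median of 2 estimated counts in SD40 replicate 1 and 1 in each other library. With at least 10 estimated counts there were 103 in SD40 replicate 1 and 9 to 23 in the others. Their median length was 852 bases in SD40 replicate 1 and 783 to 859.5 bases elsewhere, so in these rarely detected models the tilt towards long ones was not seen.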
